A study of Mus musculus with 15 samples.

Results

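Liver tumors of mice kept on an obesogenic diet were compared with the livers of control mice on chow, on Illumina whole-genome expression arrays. The members were chosen by their labels: the 5 arrays of tumor tissue from the Western diet and sugar water group (WD SW tumor) and the 5 arrays of liver from the chow diet group (CD liver), 10 of the 15 arrays of the study. All mice were of an isogenic cross of 129S1/SvImJ and C57BL/6J and were on their diet for 52 weeks. WD is a high fat diet and SW a fructose and glucose solution given ad libitum. The mouse codes of the tumors were 4N, 4R, 5N, 5R and 6L, and those of the CD livers were 1L, 1R, 2L, 2N and 3N, so the 10 arrays came from 10 different mice. The remaining 5 arrays hold non-tumor liver of the tumor-bearing mice (WD SW liver) and served only to place the tumor values. The tumors also differed from the CD livers in diet, and for genes that WD SW liver does not separate, diet and tumor cannot be told apart. The study's methods give male mice, and the labels give no histological class for the single tumors.

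A hepatocyte keeps a large part of its RNA for a few tasks: it secretes plasma proteins, clears amino acids and ammonia, makes bile acids and detoxifies drugs. These tasks are zoned along the lobule. Periportal cells, near the incoming blood, carry the urea cycle and the breakdown of histidine and serine, whereas pericentral cells, under Wnt and beta-catenin signaling, carry glutamine synthesis and many cytochrome P450 enzymes. Hepatocellular tumors are known to lose part of this specialised program, and a share of them in mouse and human carry active beta-catenin.

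Each array had 12293 to 15829 of 45281 probes above background, and the median raw signal ranged from 88.4 to 109. The label of liver was checked against hepatocyte markers. Of the 11 hepatocyte markers tested none was higher and 2 were lower in tumors (Cps1 and Serpina1a), and their summed level was 17.4 to 17.5 on the log2 scale in tumors against 17.5 to 17.7 in CD livers. Among the CD livers, 3N stood somewhat apart, with 77 genes more than 2-fold above and 48 more than 2-fold below all 4 others, against 1 to 9 and 3 to 23 for the rest. Among the WD SW livers, 5R lay closest to the tumor of its own mouse. All values below are normalized log2 signals, where a difference of 1 is a 2-fold change. They reach 15.29 at most, so a rise near that value is compressed.

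The total distance of the tumors from CD liver was measured as the root mean square log2 difference over the 8347 genes tested. The 25 tumor to CD liver pairs lay 0.871 to 1.05 apart (median 0.919), and no pair of CD livers was farther apart than 0.586 (median 0.510 over 10 pairs). Every tumor was therefore farther from each CD liver than any 2 CD livers were from each other. Tumor 6L was the farthest on average (1.02), followed by 4N (0.949), 4R (0.914), 5N (0.903) and 5R (0.900). The 25 pairs of CD liver with WD SW liver covered 0.549 to 0.9996 (median 0.749) and overlapped the tumor range. The tumors were 0.522 to 0.792 from each other (median 0.663 over 10 pairs), so they too were closer to one another than to any CD liver. Tumor and liver of the same mouse were 0.552 to 0.797 apart, the lowest value being mouse 5R.

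**Figure D1:**
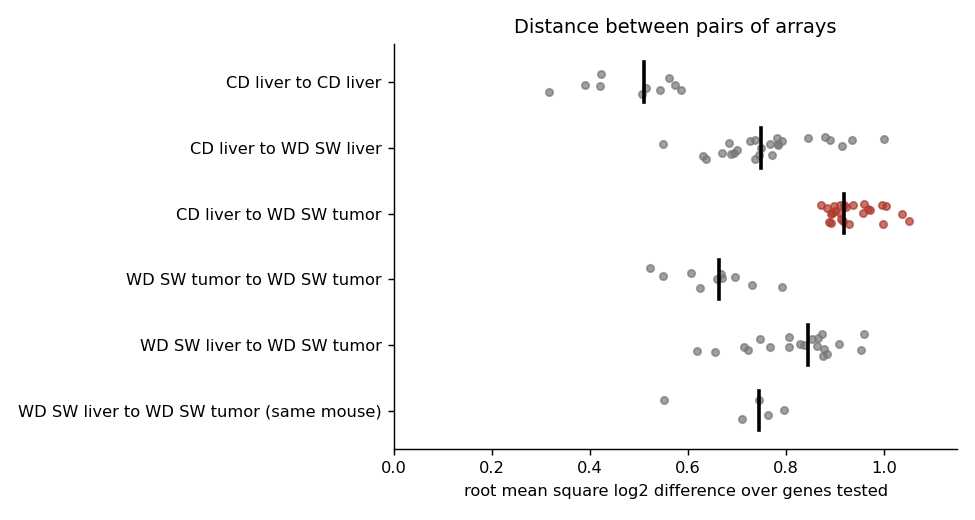
Distance between pairs of arrays on the x axis (root mean square log2 difference over 8347 genes) for each kind of pair on the y axis; each point is a pair and the black bar is the median. The tumor to CD liver pairs in red start at 0.871, above the highest CD liver pair at 0.586.

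Across genes the median absolute difference between tumors and CD livers was 0.31 on the log2 scale, with a 90th percentile of 1.07. The same median was 0.23 for WD SW liver against CD liver and 0.22 for tumors against WD SW liver. In limma with Benjamini-Hochberg adjustment at 0.05, 2099 of 8347 genes (25.1%) were called, 1030 higher (12.3%) and 1069 lower (12.8%) in tumors. At an unadjusted p under 0.05 there were 3111. Of the called genes, 495 rose and 375 fell by more than 2-fold, and 58 rose and 41 fell by more than 8-fold. In 1472 genes (17.6%), called or not, the 5 tumors did not overlap the 5 CD livers, 749 with all tumors higher and 723 with all tumors lower. The balance of the directions depended on scaling: with each array scaled to its median instead of quantile normalization, 1134 genes were higher and 473 lower, so that 70.6% of calls were rises against 49.1% in the main analysis. That scaling moved the median gene from -0.04 to 0.14, and changes are given here relative to the quantile-normalized median.

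The distance was partly shared by the tumors and partly seen in single ones. In 124 genes all 5 tumors were more than 2-fold above the highest CD liver, and in 69 genes all 5 were more than 2-fold below the lowest. A further 301 genes passed that margin above, and 370 below, in 1 tumor alone. Per tumor, 292 (5R) to 434 (6L) genes were above the range of the CD livers by this margin and 239 (5N) to 359 (6L) were below it. Per WD SW liver, 135 (4N) to 398 (6L) genes were above it, overlapping the tumors, and 40 (4N) to 204 (6L) were below it. The SD over tumors exceeded the SD over CD livers in 5839 genes (70.0%), with medians of 0.322 and 0.233.

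Several of the genes that rose most were at background in CD liver. Pnliprp1, a member of the pancreatic lipase family, read 14.18, 12.09, 13.78, 12.25 and 12.47 in the tumors (order 4N, 4R, 5N, 5R, 6L, as for every list of tumor values) and 4.31, 4.44, 4.33, 4.37 and 4.49 in the CD livers (order 1L, 1R, 2L, 2N, 3N). All 5 CD values were at background, and every tumor stood far above them, so that the rise was at least 179-fold (log2 fold change 8.57 ± 0.36 SE, adjusted p 6.96e-08). Of the 13 pancreatic acinar markers with a probe, 9 were at background in every CD liver and 9 in every tumor, and none of the 3 tested was called. Plat, the tissue plasminogen activator, read 10.19, 11.11, 11.07, 9.14 and 12.44 in tumors against 4.39, 4.49, 4.28, 4.49 and 4.30 in CD livers, at least 39.9-fold higher (log2 fold change 6.40 ± 0.46 SE, adjusted p 3.14e-06). Ly6d, a small anchored surface protein, rose at least 41.3-fold (log2 fold change 6.18 ± 0.31 SE, adjusted p 2.68e-07) and Sult2a2, a hydroxysteroid sulfotransferase, at least 30.1-fold (log2 fold change 6.01 ± 0.55 SE, adjusted p 1.64e-05). No CD liver was above background for these genes, and the WD SW livers varied widely, with Pnliprp1 at 10.80, 4.46, 5.85, 10.52 and 5.13. The livers of mice 4N and 5R carried most of that signal.

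Among genes above background on arrays of both groups, Fndc10, a fibronectin type III domain gene, rose evenly, from 5.42, 5.53, 5.35, 4.98 and 5.72 to 11.05, 10.87, 11.59, 10.97 and 10.52 (log2 fold change 5.60 ± 0.20 SE, adjusted p 2.06e-08). The highest CD liver was at 5.72 and the lowest tumor at 10.52. Abcc4, an exporter of bile acids and nucleotides, rose by 5.30 (SE 0.36, adjusted p 2.35e-06), and Rhbg, an ammonium transporter of pericentral hepatocytes, by 4.77 (SE 0.22, adjusted p 1.03e-07). The stress-induced nuclear protein gene Nupr1 rose by 4.39, the kinase gene Wnk4 by 4.33 and the carbonyl reductase gene Cbr3 by 4.26 (its other probe 2.08). The peroxisomal thioesterase gene Acot3 rose by 4.11, the glutathione transferase gene Gstm3 by 4.05 and the ubiquitin-like gene Ubd by 4.02. Cyp2a4, a steroid hydroxylase that is higher in female than in male mouse liver, rose by 4.06, with tumor values of 9.55, 11.99, 10.89, 9.75 and 8.24. Its probe may also read the near-identical Cyp2a5. Ubd was uneven: tumor 4N at 6.26 was barely above the highest CD liver at 6.13, and the other tumors were at 9.52 or more. WD SW liver already differed from CD liver by 3.83 in Cbr3, 3.66 in Cyp2a4 and 4.55 in Ubd. From WD SW liver to tumor these genes differed by 0.43, 0.40 and -0.54, in that order. The other rises of this paragraph differed in that step by 1.26 (Acot3) to 3.78 (Wnk4).

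The falls were led by Hal. Hal, histidine ammonia-lyase, the first step of histidine breakdown, read 13.02, 12.88, 12.51, 12.09 and 12.62 in CD livers and 8.499, 7.49, 6.25, 4.67 and 4.40 in tumors (log2 fold change -6.36 ± 0.66 SE, adjusted p 3.94e-05). All tumors were below all CD livers, and 2 of the 5 were at background. Cyp2f2, a P450 of periportal hepatocytes, read 9.42, 10.73, 8.36, 4.86 and 4.69 in tumors against 13.33 ± 0.13 (SD, n = 5) in CD livers (log2 fold change -5.72 ± 0.99 SE, adjusted p 0.00145). Cyp8b1, the sterol 12-alpha-hydroxylase that sets the cholic acid share of bile acids, fell by 5.72 (SE 0.60, adjusted p 3.99e-05). Arg1, arginase of the urea cycle, read 11.65, 11.04, 9.72, 7.57 and 7.69 in tumors, all below the CD livers at 13.26 to 14.12. For Hal, Cyp2f2 and Arg1 the lowest tumors were 5R and 6L. Further falls were those of the asparaginase gene Aspg (-5.25), Bdh2 (-5.04), the mitochondrial serine transporter gene Sfxn1 (-4.47), Dct (-4.23), the terminal complement gene C9 (-4.23) and Enho, which encodes adropin (-4.34).

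Asns, asparagine synthetase, and the complement regulator gene Susd4 fell evenly in all tumors. Asns read 6.45, 7.13, 6.01, 5.59 and 6.02 in tumors and 11.498, 11.69, 11.56, 11.09 and 10.07 in CD livers (log2 fold change -4.94 ± 0.34 SE, adjusted p 2.35e-06), and Susd4 was at background in every tumor and at least 14.0-fold lower (log2 fold change -4.30 ± 0.25 SE, adjusted p 6.64e-07). Both were nearly as low in WD SW liver, where Asns read 8.15, 6.46, 5.65, 5.93 and 6.29. Hsd3b5, a steroid reductase of male liver, was at background in all tumors and at least 37.2-fold lower (log2 fold change -5.91 ± 0.87 SE, adjusted p 0.000475), and here CD liver 1L at 6.55 was far below the other 4 CD livers. WD SW liver already differed from CD liver by -5.15 in Hsd3b5. Serpina1e and Mup21 belong to families of near-identical genes whose probes may cross-react. Serpina1e fell by 5.61 and Mup21 by 4.37.

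**Figure D2:**
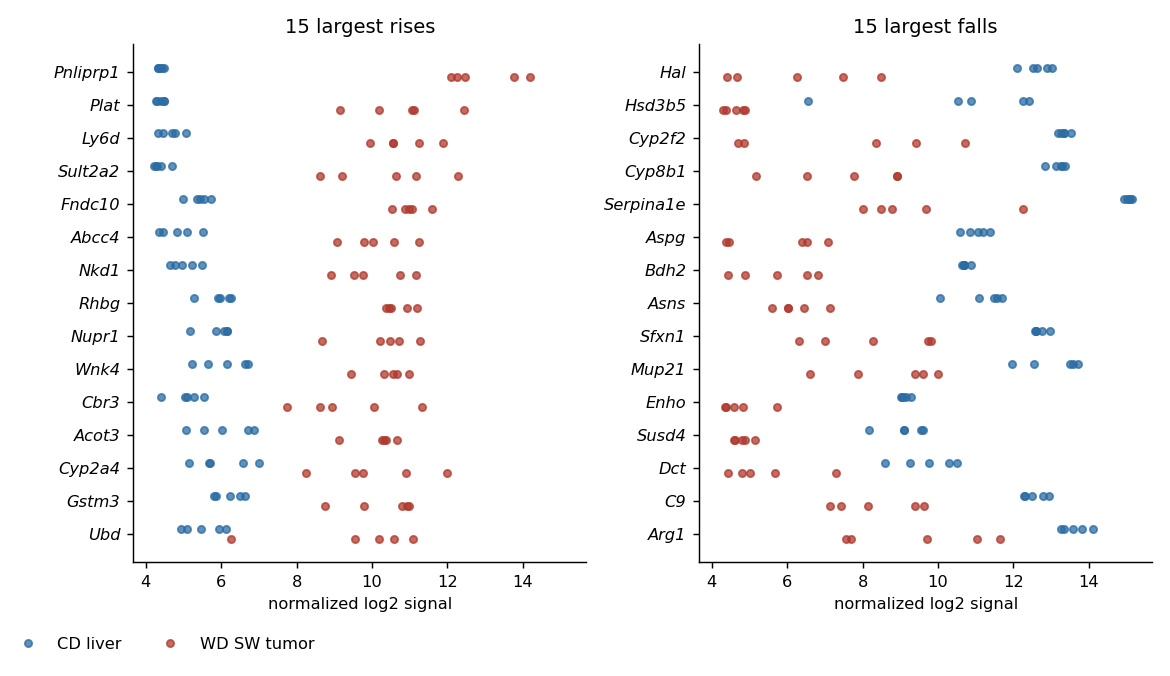
Normalized log2 signal on the x axis of the 15 largest rises and 15 largest falls among called genes without overlap, one point per array, CD livers in blue and WD SW tumors in red. Rising genes such as Pnliprp1 start at background near 4.4, and Hal and Cyp2f2 spread over several units among the tumors.

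Genes induced by Wnt and beta-catenin rose nearly as a block. Of the 22 genes listed, 21 had a probe and 13 were tested; 12 were higher, none was lower, and the median change was 2.40 against -0.04 over all genes. The filter keeps a gene that is above background in the tumors alone, so the count is given also for genes above background on all 10 arrays, where 9 were higher. Axin2, the feedback inhibitor used as a readout of the pathway, read 9.18, 9.96, 10.93, 9.94 and 10.88 in tumors and 7.09, 7.61, 7.61, 7.46 and 5.84 in CD livers (log2 fold change 3.05 ± 0.39 SE, adjusted p 0.000186). Nkd1, a second feedback inhibitor, read 8.90, 9.77, 11.18, 9.52 and 10.74 in tumors, and all CD livers were at background (at least 23.5-fold, log2 fold change 5.004 ± 0.37 SE, adjusted p 4.17e-06). Lgr5, the receptor for R-spondin, rose by 2.40 (SE 0.34, adjusted p 0.000397), the Wnt deacylase gene Notum by 1.42 (SE 0.19, adjusted p 0.000292) and the transcription factor gene Sp5 by 3.40 (SE 0.32, adjusted p 1.88e-05). Tumors and CD livers did not overlap in any of these 5 genes. Tbx3 rose by 1.67 (SE 0.47, adjusted p 0.0231) with overlap, and the call was lost without tumor 4R (1.63), 5N (1.59) or 6L (1.55). The cell cycle gene Ccnd1 rose by 2.16 (SE 0.42, adjusted p 0.0029), with tumor 6L at 9.59 inside the CD range.

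The pericentral enzymes and transporters of that list rose as well. Glul, glutamine synthetase, read 12.54, 12.68, 12.12, 12.60 and 12.24 in tumors and 9.37, 8.75, 9.18, 9.42 and 9.55 in CD livers (log2 fold change 3.18 ± 0.17 SE, adjusted p 3.04e-07), so that the lowest tumor was well above the highest CD liver. The glutamate transporter gene Slc1a2 rose by 2.66 (SE 0.29, adjusted p 5.09e-05) and Oat, ornithine aminotransferase, by 1.40 (SE 0.13, adjusted p 1.64e-05), the latter close to the top of the scale. Cyp1a2 rose by 0.95 (SE 0.26, adjusted p 0.0192), and Cyp2e1, already at 14.83 to 15.05 in CD livers, did not pass the test (0.11). In WD SW liver the median change from CD liver was 0.09 over those of the 13 genes also tested in that comparison, which left out Nkd1. The liver of mouse 5R was the highest of the 5 WD SW livers for Axin2 (9.08), Nkd1 (9.22), Lgr5 (8.04), Sp5 (9.62) and Glul (11.62).

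**Figure D3:**
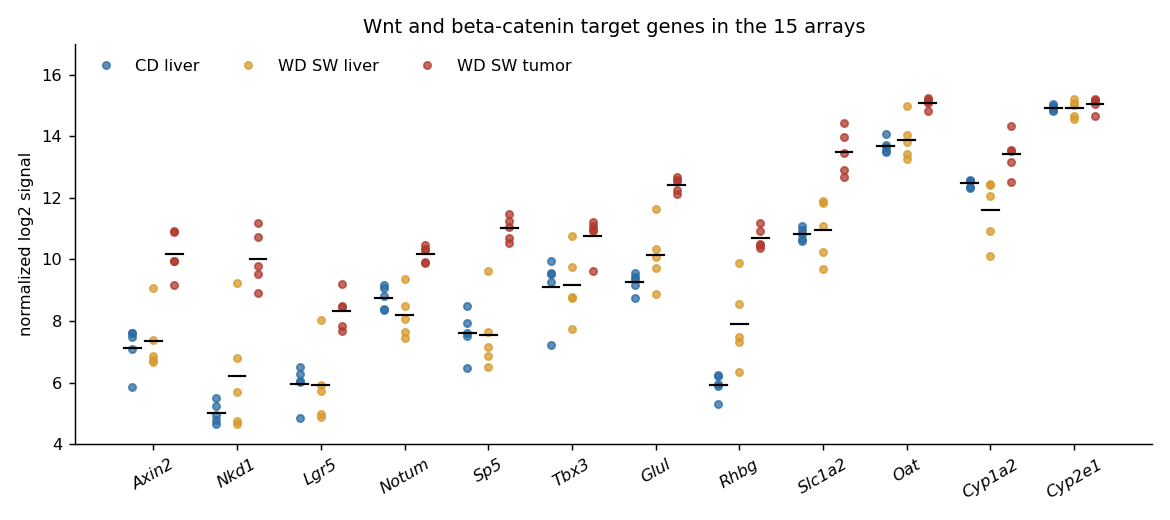
Normalized log2 signal on the y axis of 12 Wnt and beta-catenin target genes, one point per array, with CD liver in blue, WD SW liver in orange, WD SW tumor in red and the group mean as a black bar. In Axin2, Nkd1, Sp5 and Glul every tumor lies above every CD liver, and a single WD SW liver, 5R, lies near the tumors.

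The promoters of these genes are shown because the list is defined by a transcription factor pair, TCF and LEF, whose core site is known. RefSeq windows of 300 bases (250 before to 50 after the gene's start, build GRCm38.p6) were searched on both strands for CTTTG followed by AA, AT, TA or TT. At least 1 such match stood in 4 of the 8 tested list genes that had a window, and in 16.9% of all 32851 windows of that length. Sp5 (chr2:70474673-70474972, plus strand) held 2, Slc1a2 (chr2:102706188-102706487, plus strand) held 1 and Glul (chr1:153899679-153899978, plus strand) held none, and all 3 rose. Of the windows not shown, Cyp1a2, which rose, and Cyp2e1, which did not pass the test (0.11), held 1 each. Axin2, Nkd1 and Oat held none, and all of them rose. Whether a match goes with a rise was not tested. A match is a run of letters, not a shown binding site, and its capitals mark it here:
Sp5: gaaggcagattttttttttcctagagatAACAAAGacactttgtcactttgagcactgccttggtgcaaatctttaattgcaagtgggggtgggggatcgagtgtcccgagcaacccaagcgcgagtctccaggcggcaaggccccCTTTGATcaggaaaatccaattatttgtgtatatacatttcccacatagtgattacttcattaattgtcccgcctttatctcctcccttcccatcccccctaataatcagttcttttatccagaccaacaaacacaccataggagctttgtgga
Slc1a2: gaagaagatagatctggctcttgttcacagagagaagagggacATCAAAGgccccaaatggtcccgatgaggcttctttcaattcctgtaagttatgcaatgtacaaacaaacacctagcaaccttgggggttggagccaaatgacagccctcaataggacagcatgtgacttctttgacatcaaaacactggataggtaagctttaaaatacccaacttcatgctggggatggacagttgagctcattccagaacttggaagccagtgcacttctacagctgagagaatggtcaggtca
Glul: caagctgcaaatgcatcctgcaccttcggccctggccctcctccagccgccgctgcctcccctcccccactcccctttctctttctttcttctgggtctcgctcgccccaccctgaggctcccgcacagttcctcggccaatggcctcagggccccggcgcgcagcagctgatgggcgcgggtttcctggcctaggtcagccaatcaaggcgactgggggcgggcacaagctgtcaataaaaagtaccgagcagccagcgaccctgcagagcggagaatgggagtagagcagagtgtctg

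Of 20 hepatocyte transcription factors tested none was higher and 3 were lower, a share close to the 12.8% lower over all genes. Nr1h4, the bile acid receptor, fell by 0.82 (SE 0.16, adjusted p 0.00272) and Esr1, the estrogen receptor, by 1.66 (SE 0.32, adjusted p 0.00299), both without overlap. The third, Tcf7l2 (-0.62), lost its call without any 1 of CD livers 1L, 1R, 2L and 2N and tumors 4N and 4R, at -0.63 to -0.45, and its other probe read -0.06. Hnf4a, a central hepatocyte factor, read 11.80 to 11.93 in tumors and 11.74 to 12.36 in CD livers (log2 fold change -0.18 ± 0.13 SE, adjusted p 0.324). Of 27 secreted plasma proteins 11 were lower and 2 higher. Serpina1c, an alpha-1 antitrypsin gene, fell by 2.22 (SE 0.20, adjusted p 1.64e-05) and Igf1, insulin-like growth factor 1, from 12.22 ± 0.18 to 9.40 ± 1.09 (SD, n = 5 each; log2 fold change -2.82 ± 0.41 SE, adjusted p 0.000447). In the other direction Serpina6, the corticosteroid-binding globulin, rose by 1.66 (SE 0.24, adjusted p 0.000447) and Igfbp1 by 3.14 (SE 0.63, adjusted p 0.00366). Albumin (Alb, -0.78, adjusted p 0.0629) and transthyretin (Ttr, -0.05, adjusted p 0.739) did not pass the test.

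Complement and growth hormone dependent genes were mostly lower, and clotting genes moved both ways. Of 18 complement genes 12 were lower and 1 was higher (median -0.73). Within this list the membrane attack genes were among the falls: C8a fell by 2.61 (SE 0.20, adjusted p 4.19e-06) and C8b by 3.17 (SE 0.33, adjusted p 3.94e-05), and C9 read 9.63, 9.40, 8.15, 7.12 and 7.42 in tumors against 12.29 to 12.96 in CD livers. C4b fell by 1.36 (SE 0.27, adjusted p 0.00324), with its other 2 probes at adjusted p 0.061 and 0.062. Of 25 genes that growth hormone sets differently in male and female mouse liver, 15 were lower and 2 higher (median -1.54). Serpina12, or vaspin, fell by 3.20 (SE 0.32, adjusted p 3.06e-05) and Mup20 by 3.90 (SE 0.64, adjusted p 0.00103). Elovl3, a fatty acid elongase, changed by -3.41 (SE 0.46, adjusted p 0.00028), and Acot3 and Cyp2a4 were the rises. The male-typical P450 genes Cyp2d9 (-1.74) and Cyp4a12a (-2.29) were also lower. WD SW liver already differed from CD liver by -3.79 in Elovl3 and -1.62 in Cyp2d9. In Cyp4a12a, Mup20 and Serpina12 it differed by -0.43, -0.90 and 0.03. Of 21 clotting genes 8 were lower, 3 of them still with median scaling, and 5 were higher: F7 (-1.31) and F10 (-0.87) fell, whereas Plat, its binding partner gene Anxa2 (3.89), protein S (Pros1, 1.27) and F5 (0.94) rose. Hamp, the iron hormone hepcidin, fell from 14.32 ± 0.13 to 11.66 ± 0.88 (log2 fold change -2.65 ± 0.33 SE, adjusted p 0.000147).

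Amino acid breakdown fell in most of the genes tested. Of 38 urea cycle and amino acid genes tested 24 were lower and none was higher (median -0.80). In 18 of the 38, called or not, the groups did not overlap, against 17.6% of all genes tested. In the urea cycle Ass1 fell by 2.18 (SE 0.44, adjusted p 0.00362), Otc by 1.37 (SE 0.26, adjusted p 0.00281) and Asl by 1.21 (SE 0.28, adjusted p 0.00931). Cps1, which feeds the cycle, ranged from 7.06 to 12.96 in tumors, with tumor 4N inside the CD range of 12.61 to 13.92 (log2 fold change -3.07 ± 0.83 SE, adjusted p 0.0185). Gldc of the glycine cleavage system fell by 3.98 (SE 0.58, adjusted p 0.000447), Kynu of tryptophan breakdown by 2.42 (SE 0.29, adjusted p 0.0001) and Agxt, which removes glyoxylate, by 1.98 (SE 0.37, adjusted p 0.00241). The enzymes of histidine breakdown fell together: Hal, then Uroc1 (-2.72), Amdhd1 (-3.70) and Ftcd (-1.94). Of 10 asparagine, serine and one-carbon genes 7 were lower, among them Cbs (-1.56), Aldh1l1 (-1.33, its other probe -0.35), Dmgdh (-1.21), Sardh (-1.37) and Gnmt (-1.59). Beside these falls, Glul and the neutral amino acid transporter gene Slc1a4 (3.01, SE 0.50, adjusted p 0.00104) rose.

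Detoxification genes moved both ways. Of 31 cytochrome P450 genes 8 were higher and 8 lower, or 5 and 7 among genes above background on all 10 arrays. Cyp2c38 rose by 3.66 (SE 0.26, adjusted p 3.14e-06), Cyp2c39 by 3.19 and Cyp2c55 by 3.75, members of a closely related subfamily, and Cyp2a5 by 2.01. Cyp2a12 fell by 2.59 (SE 0.46, adjusted p 0.00182). Of 37 antioxidant genes and targets of NRF2, the regulator of the response to electrophiles, 22 were higher and 1 was lower (median 0.85), and 16 were higher among those above background on all 10 arrays. The mitochondrial peroxiredoxin gene Prdx3 read 10.70, 10.74, 10.997, 10.55 and 10.66 in tumors against 8.84, 9.22, 8.75, 8.82 and 8.75 in CD livers (log2 fold change 1.85 ± 0.13 SE, adjusted p 3.14e-06). Gstm2 rose by 2.70, Gsta1 by 3.28 (another of its probes at 1.34, not passing), Nqo1 by 1.69, sulfiredoxin (Srxn1) by 2.02 and Gclm, of glutathione synthesis, by 0.85. In bile acid handling Cyp7a1, the rate-limiting enzyme of synthesis, rose by 2.07 (SE 0.43, adjusted p 0.00426), and the uptake carrier gene Slc10a1 fell by 1.98 (SE 0.39, adjusted p 0.00324).

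Among lipid genes, several targets of PPARA, the fatty acid sensor, rose and several genes of cholesterol synthesis fell. Of 29 such targets and fatty acid oxidation genes 11 rose and 1 fell. Acot1 rose by 2.33 (SE 0.24, adjusted p 3.69e-05), Acot4 by 1.54, Ehhadh by 1.57, Cyp4a14 by 2.51 and the hormone gene Fgf21 by 3.27 (SE 0.47, adjusted p 0.000437). Lpl, lipoprotein lipase, read 12.91, 11.46, 11.40, 11.76 and 12.30 in tumors and 8.05, 8.69, 8.27, 7.98 and 7.74 in CD livers (log2 fold change 3.82 ± 0.28 SE, adjusted p 3.79e-06), and Vldlr (2.94) and Pparg (1.62) rose with it. Of 15 cholesterol genes 8 were lower, but only 2 without CD liver 1L, CD liver 1R or tumor 5N and 5 without CD liver 3N or tumor 6L. Dhcr7 fell by 1.75 (SE 0.45, adjusted p 0.0152) and Nsdhl by 1.65 (SE 0.42, adjusted p 0.0149, its other probes not passing), with WD SW liver at -1.40 and -1.996 from CD liver. In glucose handling Pkm, the pyruvate kinase of proliferating tissue, rose by 2.39 (SE 0.30, adjusted p 0.000148), and the gluconeogenic genes G6pc (-2.16) and Fbp1 (-1.12) fell. Of 41 oxidative phosphorylation genes 7 were lower, 0 with median scaling and 3 or 4 without any 1 CD liver; Sdhb fell by 0.68. Of 31 ribosomal protein genes 7 were higher, 1 with median scaling and 2 to 4 without CD liver 1L, 1R, 2L or 2N or tumor 4N, 5N or 6L. Ddit3, the stress factor CHOP, rose by 2.33 (SE 0.30, adjusted p 0.00016), and Hmox1, heme oxygenase, by 2.07.

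Proliferation and fetal genes rose in part. Of the 39 cell cycle genes with a probe, 26 were at background in every CD liver and 10 in every tumor. Of the 14 tested 7 were higher and 1 was lower, but only 3 were higher without tumor 4N, 4R, 5N or 5R and 4 without 6L, and 2 when genes had to be above background on all 10 arrays. Prc1, of the mitotic midzone, read 8.24, 7.76, 8.61, 8.35 and 5.94 in tumors and was at background in CD livers (at least 4.96-fold, log2 fold change 3.20 ± 0.41 SE, adjusted p 0.000181). Stmn1, a tubulin regulator, rose by 2.27 (SE 0.28, adjusted p 0.000139), and the replication genes Mcm5 by at least 2.62-fold and Mcm4 by 1.08. Cdc20 read 8.09, 6.46, 7.97, 7.70 and 4.85 in tumors, so that 6L stayed at the CD level (log2 fold change 2.08 ± 0.52 SE, adjusted p 0.0133). Cdkn2c, a brake of the cycle, rose by 1.76 (SE 0.22, adjusted p 0.00013). Mcm10 went the other way, from 11.31, 11.19, 11.98, 12.29 and 11.16 to 8.49, 9.14, 10.42, 10.28 and 7.92 (log2 fold change -2.34 ± 0.45 SE, adjusted p 0.00279). WD SW liver already differed from CD liver by 2.33 in Prc1, 1.48 in Mcm5, 0.94 in Mcm4 and 1.46 in Cdkn2c. From WD SW liver to tumor these genes differed by 0.86, 0.32, 0.13 and 0.30, in that order. Stmn1 (0.87, then 1.40), Cdc20 (0.88, then 1.21) and Mcm10 (-1.09, then -1.25) differed more in the second step.

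Of the 31 oncofetal and liver tumor genes listed, 27 had a probe and 13 were tested; 5 were higher (3 without tumor 4N or 4R, and 0 when above background on all 10 arrays) and 2 were lower. Afp, alpha-fetoprotein, read 7.85, 7.45, 7.87, 8.24 and 6.46 in tumors against background in CD livers (at least 4.29-fold, log2 fold change 2.98 ± 0.28 SE, adjusted p 2.09e-05). The guidance receptor gene Robo1 rose by 2.69 (SE 0.25, adjusted p 1.88e-05), Golm1 by 1.71 and the aldose reductase family gene Akr1b10 by 1.51. WD SW liver already differed from CD liver by 2.03 in Robo1, 1.89 in Golm1 and 1.60 in Akr1b10, but by 0.81 in Afp. From WD SW liver to tumor these genes differed by 0.65, -0.18, -0.09 and 2.17, in that order. The summed level of the list was 12.28 to 15.13 in tumors and 12.27 to 15.35 in WD SW livers. The ductal factor gene Sox9 (-2.75) and the imprinted gene Peg3 (-1.98) fell.

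Genes of myeloid cells were higher in tumors than in CD livers. Of 18 macrophage and monocyte markers with a probe 13 were tested and all 13 were higher, 6 among genes above background on all 10 arrays. Their summed level was 11.96 to 13.45 in tumors, 10.45 to 11.35 in CD livers and 12.81 to 14.79 in WD SW livers, so that every tumor was above every CD liver and the tumors overlapped the WD SW livers. In bulk tissue fewer cells of a type and less RNA per cell cannot be told apart. Lgals3 (galectin-3) read 10.66, 10.64, 10.35, 9.25 and 11.38 in tumors and 7.84, 7.59, 7.68, 6.85 and 7.499 in CD livers (log2 fold change 2.96 ± 0.33 SE, adjusted p 6.13e-05). The complement gene C1qb rose by 2.24, Tyrobp by 1.52, Vav1 by 1.22, Cd44 by at least 3.16-fold and Ms4a6d by at least 3.31-fold. Of 10 resident Kupffer cell markers tested 4 were higher and 1 was lower. The lower one, Cd163, was above background in all CD livers and in no tumor (at least 2.64-fold lower, log2 fold change -2.24 ± 0.33 SE, adjusted p 0.000447). All 7 MHC class II genes tested were higher, 4 among genes above background on all 10 arrays, since 6 of the 11 listed were at background in every CD liver, with Cd74 at 3.05 (SE 0.46, adjusted p 0.000581) and H2-Aa at 2.60 (SE 0.32, adjusted p 0.000126). Gpnmb (3.60) and Mmp12 (at least 3.71-fold), genes of lipid-laden macrophages, rose too. The MHC class II genes had a median change of 2.56 in tumors and of 2.93 in WD SW liver, over those also tested there. From WD SW liver to tumor Gpnmb differed by 0.65, Mmp12 by -0.07, Cd74 by -0.33 and H2-Aa by -0.33.

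Of 27 interferon-stimulated genes 11 were higher and 1 was lower, and 6 were higher among genes above background on all 10 arrays. Their median change from CD liver was 0.80 in tumors and 1.24 in WD SW liver, over those also tested there. Usp18 read 10.11, 10.53, 11.12, 10.90 and 11.80 in tumors against 7.51, 7.01, 7.18, 6.46 and 6.91 in CD livers (log2 fold change 3.88 ± 0.29 SE, adjusted p 3.82e-06), and the chemokine gene Cxcl9 rose by 3.59 (SE 0.52, adjusted p 0.000447) and Ccl5 by 2.501. From WD SW liver to tumor Usp18 differed by 1.52, Cxcl9 by 0.33 and Ccl5 by -0.58. Cxcl12, a chemokine of stromal and endothelial cells, fell by 1.98 (SE 0.22, adjusted p 5.59e-05). Of 13 neutrophil markers with a probe 9 were at background in every CD liver. Those tested were higher in 4 of 5, but in 0 when above background on all 10 arrays, in 1 without tumor 4N, 4R or 6L and in 2 without CD liver 1L, 2L, 2N or 3N. The median change of the neutrophil markers was 1.91 in tumors and 2.94 in WD SW liver, over those also tested there. One T and NK cell marker of 3 tested was higher, 14 of the 18 with a probe being at background in every CD liver and 7 in every tumor. No B or plasma cell marker was tested, 7 of 9 being at background in CD livers and 6 in tumors.

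Several genes of the sinusoid fell in tumors. Of 18 endothelial markers tested 6 were lower and 1 was higher (median -0.64), with 4 lower under median scaling and 2 among genes above background on all 10 arrays, and their summed level was 10.7 to 12.4 in tumors, 12.3 to 13.3 in CD livers and 11.1 to 13.3 in WD SW livers. The sinusoidal endothelial genes Clec4g (-2.41, SE 0.57, adjusted p 0.01), Ehd3 (-2.01) and Dnase1l3 (-1.74) fell without overlap, and tumor 5R was the lowest in Clec4g (6.90). Of 11 stellate cell and fibroblast markers 5 were lower, 1 without CD liver 1L or 1R, 2 without 2L or 3N and 3 without tumor 5R or 6L. Pdgfra, a receptor of those cells, fell by 1.29 (SE 0.24, adjusted p 0.00237). In the matrix list Col4a1, of basement membrane, rose by 2.05 (SE 0.31, adjusted p 0.00058), as did the adhesion receptor gene Vcam1 (2.496). From CD liver to WD SW liver Col4a1 differed by 1.89 and Vcam1 by 2.91.

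**Figure D4:**
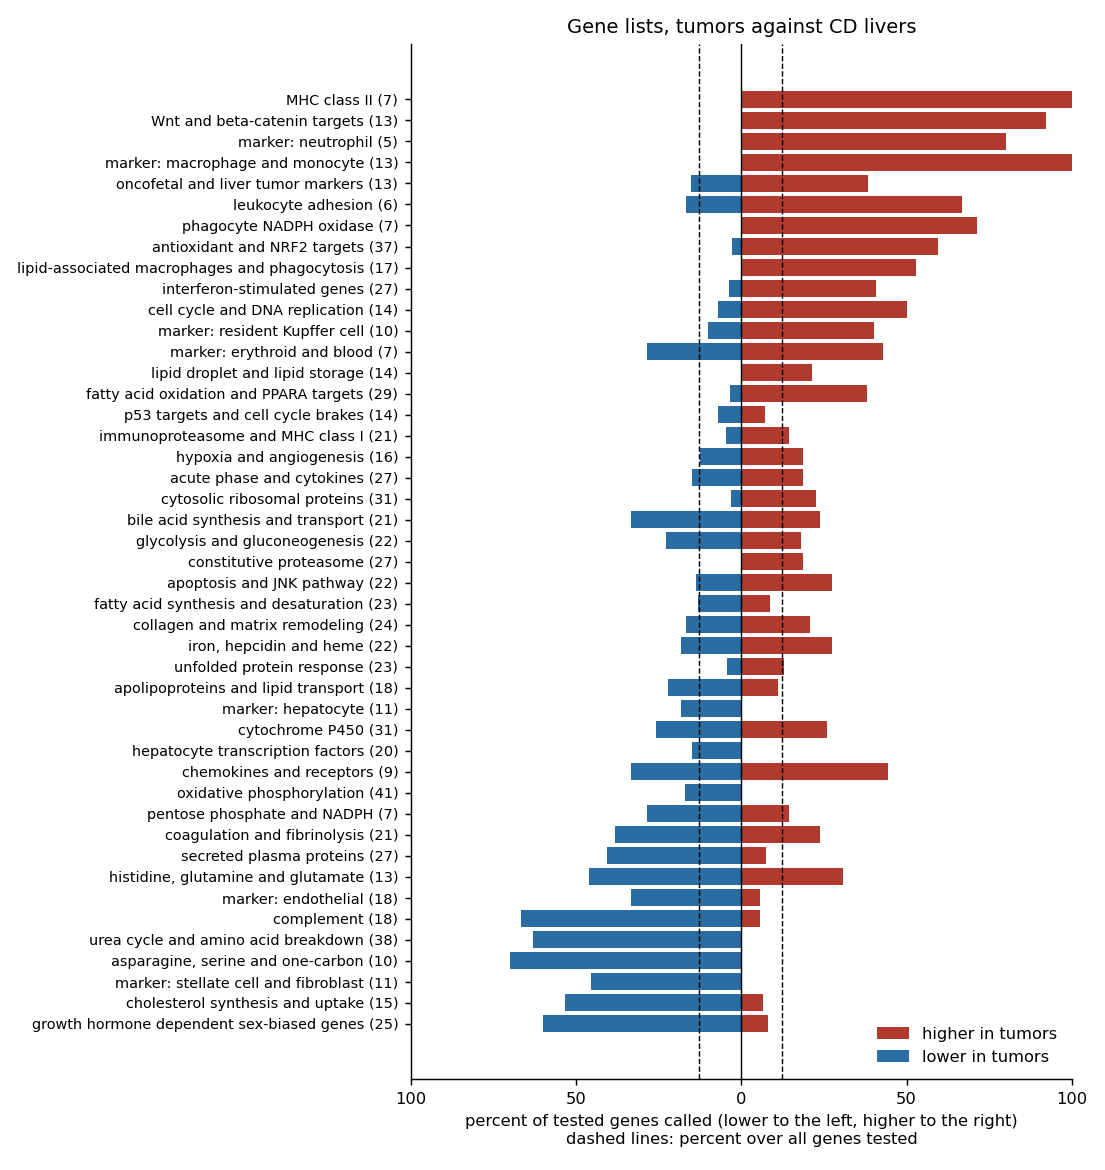
Percent of the tested genes of each list that were called higher (red, right) or lower (blue, left) in tumors against CD livers, ordered by the median change, with the number tested in brackets; lists with fewer than 5 tested genes are left out. Dashed lines mark the 12.3% higher and 12.8% lower over all genes tested.

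The gaps seen in this comparison alone were those called between tumors and CD livers and called in neither other comparison of the 3 groups. Of the 8103 genes tested in all 3, 1987 were called here and 1214 of them only here, 501 higher (6.18% of the 8103) and 713 lower (8.80%). In WD SW liver against CD liver 824 of 8419 genes (9.79%) were called, and in tumors against WD SW liver 348 of 8669 (4.01%). The comparisons share arrays, and a gene called only here is not thereby shown to differ between tumor and WD SW liver. These gaps were small: their median absolute change was 0.72, 119 rose and 174 fell by more than 2-fold, and the same genes had median absolute changes of 0.31 from CD liver to WD SW liver and 0.42 from WD SW liver to tumor. Tumor and WD SW liver came from the same 5 mice. With the mouse as a block, tumors against WD SW liver gave 906 calls in place of 348, and 983 genes remained only here, 981 of them shared with the 1214.

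Most of the largest only-here gaps were therefore gaps from WD SW liver as well once mice were paired. The rises were led by Gstm3, whose values were 4.05 from CD liver to tumor, 1.85 from CD liver to WD SW liver (adjusted p 0.114) and 2.20 from WD SW liver to tumor (adjusted p 0.137, 0.0324 with the block). Fgf21 (3.27), Tnfrsf19, a Wnt-related receptor gene (3.14), Slc1a4 (3.01), Vldlr (2.94), Mtmr11 (2.65, a second probe at -0.48), Ccdc68 (2.52), Olig1 (2.23), Cyp7a1 and Srxn1 followed. The falls were led by the urinary protein genes Mup6 (-3.80), Mup3 (-3.10) and Mup2 (-2.62), by Prepl (-2.92, its other probe -0.06), Ugt2b1 (-2.43), Sult2a8 (-2.43), Clec4g, Mcm10, Adam23 (-2.31) and Ass1. Mup2 lost its call without any of 7 arrays, all 5 CD livers and tumors 4R and 6L, at -2.82 to -2.31. Of these 20 genes Vldlr, Cyp7a1, Srxn1 and Sult2a8 stayed only here with the block. With a single filter of 5 of the 15 arrays for all comparisons, chosen after seeing the data, Cyp7a1 was called between CD liver and WD SW liver as well (adjusted p 0.0487) and was no longer only here.

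In both forms of the comparison 517 of the only-here genes did not overlap between tumors and CD livers. The larger of them were chosen after their values were seen. Cyp7a1 read 11.36, 12.35, 12.78, 12.09 and 12.34 in tumors, 12.22, 12.71, 11.501, 13.13 and 10.51 in WD SW livers and 10.15, 10.98, 9.52, 11.19 and 8.73 in CD livers, with 1.90 (adjusted p 0.0507) from CD liver to WD SW liver. Its WD SW livers covered the range of the tumors. Nqo1 differed by 1.69 in tumors and by 1.38 (adjusted p 0.0519) in WD SW liver, and with the single filter it too was called there (adjusted p 0.0499). Serpina6 differed by 0.09 from CD liver to WD SW liver and 1.56 from there to tumor (adjusted p 0.228), and the WD SW livers spread from 8.30 to 12.99. The keratin gene Krt8 rose by 1.39 and the protease gene Prss8 by 1.63. Falls were those of G6pc (-2.16), the muscle-type carbonic anhydrase gene Car3 (-1.91), Cyp4f14 (-1.90), Arhgap24 (-1.86), Cth, of cysteine synthesis (-1.54) and Acat1, of ketone and isoleucine metabolism (-1.42). By list, 18 of the 38 urea cycle and amino acid genes tested were only here (11 with the block), as were 14 of 37 antioxidant genes (9). So were 7 of 41 oxidative phosphorylation genes (7 with the block), all lowered, though 0 were called lower with median scaling. Over all genes tested in the 3 comparisons, 6.18% were only here and higher and 8.80% only here and lower. None of the 13 macrophage markers and none of the 7 MHC class II genes was only here. A further 112 called genes, Pnliprp1, Plat, Ly6d, Sult2a2 and Nkd1 among them, were not tested in both other comparisons and could not be placed.

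The tumors differed most from each other in Igf2, the fetal growth factor, which read 13.32, 14.03, 7.15, 6.73 and 5.21 in tumors and 5.34 to 5.74 in CD livers. Tumors 4N and 4R were thus more than 6 log2 units above the other 3, and the group difference was 3.68 (adjusted p 0.0917). Next in spread were Cyp2f2 and the acute phase gene Saa1, which read 12.20, 10.46, 8.76, 8.86 and 15.07 in tumors and 12.43, 12.21, 12.87, 10.18 and 10.89 in CD livers. The meiotic cohesin gene Rec8 read 4.26, 7.88, 10.35, 10.34 and 6.59 and the mucosal peptide gene Tff3 5.99, 11.18, 5.71, 5.94 and 4.76, each in tumors. The noncoding RNA gene Snhg11 read 10.58, 6.91, 8.63, 11.20 and 5.11, Xlr4a 6.496, 5.77, 10.90, 5.24 and 5.46 and Igfbp2 12.77, 7.56, 8.74, 8.68 and 6.66. Wfdc2, a secreted protease inhibitor gene, read 8.04, 10.79, 6.93, 4.91 and 5.81 in tumors and 10.31 to 11.0002 in CD livers (log2 fold change -3.32 ± 0.84 SE, adjusted p 0.0135), and Mup2 14.69, 13.08, 13.82, 8.70 and 11.04. Tumors 5R and 6L were the lowest in Cyp2f2, Wfdc2 and Mup2, and a single tumor stood far above the rest in Tff3 (4R), Xlr4a (5N) and Igfbp2 (4N).

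The tumor values also varied by chromosome, a property read after the gene results were seen. For each array, the log2 difference of every gene from the CD livers was taken (a CD liver against the other 4), and the median over a chromosome was set against the median over all genes. The CD livers centre on 0 by construction. They lay between -0.05 and 0.05 on all 20 chromosomes examined and the WD SW livers between -0.14 and 0.16. The tumors ranged from -0.42 to 0.67. Tumor 4N passed 0.2 in either direction on 10 chromosomes, tumors 4R and 5R on 3 each, and 5N and 6L on 1 each. In 4N the highest was chromosome 12 (0.67 over 278 genes) and the lowest were chromosomes 6 (-0.42) and 14 (-0.39), where the other tumors read -0.02 to 0.00 and -0.06 to 0.06. Chromosome 15 was high in 4R (0.30) and chromosome 2 in 4N (0.31) and 5N (0.20).

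Chromosome 4 was low in all 5 tumors, at -0.37 in 4N, -0.23 in 4R, -0.15 in 5N, -0.26 in 5R and -0.10 in 6L, and 27.0% of its 514 genes were called lower and 5.06% higher. The non-tumor WD SW liver 5R read -0.14 there, lower than tumor 6L. Other chromosomes also lay outside the CD livers in all 5 tumors. Chromosome 1 read 0.07 to 0.35 (21.1% called higher, 7.57% lower) and chromosome 3 read 0.08 to 0.21 (18.3% and 7.79%). Chromosome 8 read -0.22 to -0.03 (7.05% and 15.4%). The WD SW livers overlapped the tumors on each of these, at 0.006 to 0.073, 0.038 to 0.123 and -0.079 to 0.003. On chromosome 3 every WD SW liver was also above every CD liver. These medians are a description and were not tested. The Y-linked gene Eif2s3y read 10.17, 7.49, 9.24, 7.20 and 8.04 in tumors, 10.002, 9.47, 10.13, 10.18 and 10.51 in CD livers and 10.23, 9.9995, 10.27, 10.001 and 9.97 in WD SW livers (log2 fold change -1.63 ± 0.48 SE, adjusted p 0.0283), and Kdm5d read 6.52, 5.81, 6.31, 4.82 and 5.89 in tumors and 6.97, 6.54, 6.94, 6.79 and 6.77 in CD livers. Tumor 4N alone stayed at the liver level of Eif2s3y. Its call was lost without any 1 of CD livers 1L, 2L, 2N and 3N and tumors 4R, 5R and 6L (-1.64 to -1.32), and that of Kdm5d without CD liver 1L, 2L or 2N or tumor 4R (-0.94 to -0.89).

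**Figure D5:**
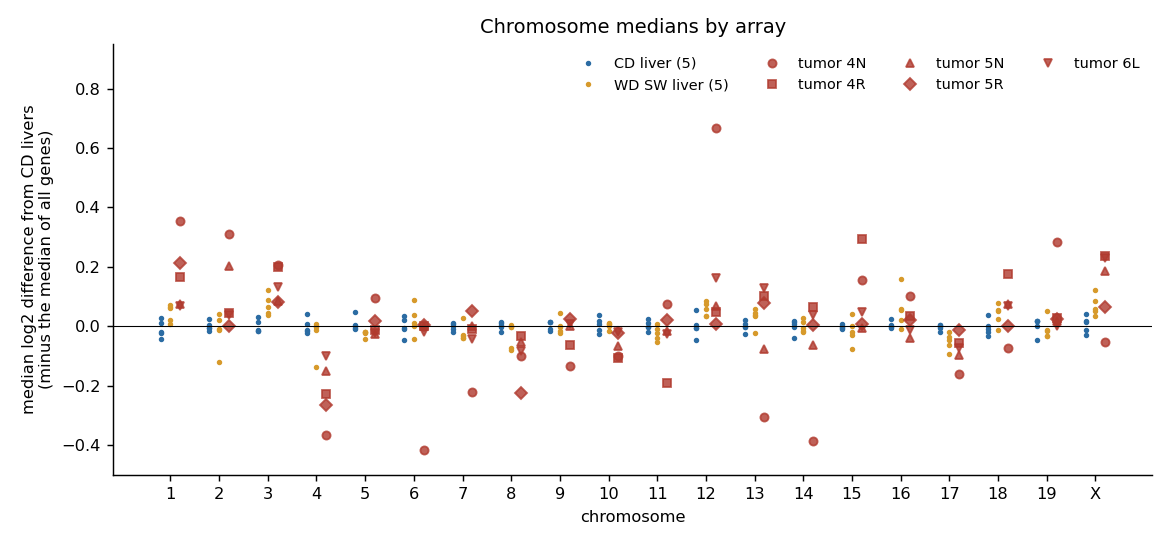
Median log2 difference from the CD livers of the genes of each chromosome, minus the median of all genes, by array; CD livers are blue, WD SW livers orange and each tumor has its own red symbol. Tumor 4N spreads from -0.42 on chromosome 6 to 0.67 on chromosome 12, and chromosome 4 is below 0 in all 5 tumors.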

How the data were processed

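RNA of 5 CD livers, 5 WD SW livers and 5 WD SW tumors was measured on Illumina mouse BeadChips, 1 array each. The authors deposited a table of non-normalized intensity for 45281 probes and a table of processed intensity of the same arrays, for which no normalization method was stated in the material at hand. From the non-normalized table, background correction and quantile normalization over 15 arrays were done with neqc (offset 16; limma 3.58.1, R 4.3.3). No negative control probes were in the table used, so 1523 olfactory, vomeronasal and trace amine receptor probes, which liver is not known to express, stood in for them. A probe was above background where under 0.01 of these reached its signal, and was kept when above background on at least 5 of the 10 arrays compared. Values are log2, and fold changes are differences of log2 means. The brightest kept probe stood for a gene, and 17796 genes had a named probe. Of 689 called genes with several kept probes, 42 had probes of opposite sign.

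Groups came from the sample labels. Each comparison was fitted with lmFit and eBayes (trend) on its 10 arrays, two-sided, with Benjamini-Hochberg adjustment over all genes tested and a threshold of 0.05. The steps were tested on simulated data. Where no array of a group was above background, a fold is given as "at least", against the lowest signal above background on each array or the probe's own value where higher. Tumor and WD SW liver carry the same mouse codes, and the deviations of a tumor correlated with those of its own liver at r = 0.21 to 0.54, above every other liver (at most 0.14); the mouse was therefore also fitted as a block. Arrays have no sequencing depth; the number of arrays limits the precision.

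The samples compared and the 50 gene lists were chosen with earlier results of these data known. Named genes were the 15 largest rises and falls without overlap, the 10 largest of each only here, up to 5 members of a list with the smallest adjusted p and its defining markers, and the 10 genes of largest SD over tumors; 36 of the 172 genes named lie outside that rule and were picked with their values in view. A list is described by its counts and its median. Promoter windows were those of RefSeq. Figures were drawn with matplotlib 3.10.9. Background correction, normalization, filter, probe choice, samples in the fit, array weights and each array were varied.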

Additional observations from a re-analysis of the deposited data

Results flagged for a closer look

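In 25 of 330 groups of 5 arrays checked over the named genes, the highest or the lowest array stood far from the other 4 for the spread of its group. The criterion was Dixon's, a gap over 0.71 of the whole range, which chance passes in about 1 in 20 groups. Values are normalized log2 signals. A tumor stood apart as the highest in Elovl3 (6.84 in 4N, next 4.58), Asl (8.08 in 4N, next 7.14), Slc1a4 (10.73 in 6L, next 8.33), Peg3 (5.80 in 4R, next 5.06), Tff3 (11.18 in 4R, next 5.99) and Xlr4a (10.90 in 5N, next 6.50). A tumor stood apart as the lowest in Acot3 (9.13 in 5N, next 10.28), Tbx3 (9.61 in 4N, next 10.94), Tcf7l2 (6.58 in 4R, next 7.31), F7 (7.57 in 4R, next 8.20), Anxa2 (11.61 in 4N, next 12.83), Cyp2a5 (14.11 in 6L, next 14.96), Cyp2a12 (7.59 in 6L, next 9.80), Nqo1 (5.78 in 6L, next 6.96) and Tyrobp (6.12 in 5R, next 6.65). A CD liver stood apart as the highest in Bdh2 (10.87 in 2L, next 10.70), F5 (11.54 in 2N, next 11.14), Asl (9.50 in 3N, next 8.36), Ftcd (13.75 in 3N, next 13.53), Prdx3 (9.22 in 1R, next 8.84), Cd163 (8.13 in 3N, next 6.55) and Gpnmb (6.04 in 2L, next 4.77). A CD liver stood apart as the lowest in Lgr5 (4.84 in 3N, next 6.02), Tbx3 (7.21 in 3N, next 9.26) and Tcf7l2 (7.55 in 3N, next 7.94). CD liver 3N was the array concerned in 6 of these.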

How the results depend on the processing

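Median scaling of the log2 values left 473 genes lower in tumors in place of 1069 and moved the median of all genes to 0.14. With every probe tested on its own 3237 probes were called, 1590 higher and 1647 lower, and 1941 only here, since more features were tested. The median absolute log2 change was 0.309 in the values reported, 0.326 with median scaling, 0.237 with another background correction, 0.211 with none, 0.209 on the authors' processed values and 0.156 with no filter on dim probes. In the other alternatives tried the number of genes called lay between 1576 and 2526, and it was 2095 on the authors' processed values. Leaving out each array of the 2 groups in turn gave 1473 to 2130 genes called, 751 to 971 higher and 702 to 1159 lower, the lowest without CD liver 2L, and a median absolute change of 0.300 to 0.327; without any 1 of the 15 arrays 864 to 1446 genes were only here. With the replicate block by mouse 983 genes were only here. Of the 161 named genes called, 152 were called under every alternative that tested them. Apart from those named above, Cyp1a2 (0.95) and Car3 (-1.91) lost their call in 1 fit of all 15 arrays, Nsdhl (-1.01) with the mean of its probes and Sdhb (-0.50) with median scaling. Without tumor 4N Igfbp2 (-3.27) and Rec8 (2.99) were called, without 4R Alb (-0.97) and Tff3 (-1.64), without 5N Xlr4a (-1.99) and without 6L Igf2 (4.70). None of the 161 named genes called changed direction. For named genes not called, a change of direction was not looked for. Without both arrays of mouse 5R, chosen after seeing the data, 2130 genes were called and 1285 were only here.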

Other observations

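Further gene lists, chosen with earlier results of these data known, are given here beside 12.3% higher and 12.8% lower over all genes. Of 7 genes of the phagocyte NADPH oxidase, which makes superoxide, 5 were higher and none lower, but 1 was higher among genes above background on all 10 arrays. Of 17 genes of lipid-associated macrophages 9 were higher and none lower, 5 higher when above background on all 10 arrays. Of 9 chemokine and receptor genes 4 were higher and 3 lower, and 1 and 3 when above background on all 10 arrays. The median changes of these lists, in the order given, were 0.90, 0.82 and -0.18 in tumors. In WD SW liver they were 2.06, 0.89 and 0.83, over the genes also tested there. Of 22 iron and heme genes tested 6 were higher and 4 lower, of 14 lipid droplet genes 3 were higher and none lower, and of 23 genes of the unfolded protein response 3 were higher and 1 lower. In the lists of acute phase, leukocyte adhesion, apolipoprotein, fatty acid synthesis, glycolysis, pentose phosphate, proteasome, immunoproteasome, p53, hypoxia, apoptosis, matrix and erythroid genes, a count in at least 1 direction moved by over 1.5 times when 1 array was left out, and nothing is read from them.

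Genes at background in CD liver could be placed against WD SW liver when a single filter of 5 of the 15 arrays was used for all comparisons, an alternative chosen after seeing the data. From WD SW liver to tumor Pnliprp1 then differed by 5.60 (adjusted p 0.0242, limma), Plat by 4.21 (adjusted p 0.0165), Sult2a2 by 4.26 (adjusted p 0.0117) and Nkd1 by 3.80 (adjusted p 0.0223). Ly6d differed by 3.74 from CD liver to WD SW liver (adjusted p 0.0194) and by 2.45 from there to tumor (adjusted p 0.153).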
